A study of Homo sapiens with 31 samples.

Results

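LoVo and HT-29 are established lines of human colorectal adenocarcinoma, and the comparison set the 3 unmixed LoVo libraries against the 3 unmixed HT-29 libraries, 6 of the 31 libraries of the series, over all 17113 genes of the count table. LoVo was grown from a metastasis and has microsatellite instability. HT-29 was grown from a primary tumour, is microsatellite stable, and carries mutant BRAF and SMAD4. These features are background from the literature on the lines and were not read from the libraries. The series was made to test how well the share of cancer RNA can be inferred in mixtures of cancer and normal RNA. Its other unmixed libraries are of the colorectal cancer lines LS1034 and HCT116 and of CCD841CoN, a line from normal colon, and the rest are mixtures of cancer line RNA into CCD841CoN RNA. The labels give no treatment and no genetic change made by the submitters, and the lines were kept in RPMI-1640 or DMEM with serum without saying which line had which medium, so that line and medium cannot be told apart. Each line stands for 1 tumour, and the labels do not say whether its 3 libraries are of 3 cultures. The p-values below therefore measure the spread between these libraries, which may be technical.

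The normal colon epithelium is renewed from stem cells at the crypt base that depend on Wnt signals. Their daughters become absorptive enterocytes, under factors such as CDX2 and HNF4A, or secretory cells such as mucus-producing goblet cells, under ATOH1 and SPDEF. Colorectal cancer lines keep parts of these programmes to different degrees. Tumour cells also often lose the p53 response, which halts or kills damaged cells, or the SMAD4-dependent response to TGF-beta and BMP ligands.

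The LoVo libraries held 37418506, 24858045 and 12543986 counts and the HT-29 libraries 28732096, 24936733 and 10800329 counts. Mitochondrially encoded genes took 0.455% to 0.864% of the counts in LoVo and 0.113% to 1.12% in HT-29. Spearman correlations of gene levels were 0.881 to 0.886 between LoVo libraries, 0.896 to 0.909 between HT-29 libraries and 0.775 to 0.843 between the lines. The epithelial label fitted both lines: EPCAM, an epithelial adhesion molecule, stood at 1758, 882 and 1247 CPM in LoVo and 1653, 1265 and 1629.5 CPM in HT-29, CPM being counts per 1000000 counts of the library after scaling between libraries, and the groups overlapped. Of 12 markers of colon epithelium, 1 was called higher and 6 lower in LoVo by the rule given below, and without LoVo replicate 1 or 2 the lower count was 3. The summed level of 14 fibroblast and mesenchyme markers was 9.94 to 23.7 CPM in LoVo and 7.49 to 40.01 CPM in HT-29, and of 11 smooth muscle and neural markers 3.88 to 4.95 CPM in LoVo and 5.52 to 6.62 CPM in HT-29. That of 6 endothelial markers was 1.64 to 3.15 CPM in LoVo and 0.242 to 1.48 CPM in HT-29. Immune markers summed to 2.07 to 3.39 CPM in LoVo and 1889 to 2713 CPM in HT-29, nearly all of it LYZ, which secretory epithelial cells also make.

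HT-29 replicate 2 held more reads of genes of the other lines than its replicates did, above all of HCT116 genes. Of 9 genes that marked HCT116, the summed level in the HT-29 libraries was 0.066%, 5.03% and 0% of the HCT116 level in replicates 1, 2 and 3. In a version chosen after the data were seen, 75 of 78 genes that HCT116 expressed and the other HT-29 libraries nearly lacked stood above 1% of their HCT116 level in replicate 2, with a median of 5.81%. For genes chosen in the same way from LoVo, 38 of 71 stood above 1% of their LoVo level in HT-29 replicate 2, with a median of 1.23%, against 1 of 24 in replicate 1 and 2 of 25 in replicate 3. From LS1034 these were 18 of 59, against 3 of 33 and 0 of 32, and from CCD841CoN 80 of 304, against 1 of 187 and 1 of 219. A gene may be shared by several of these sets, and this was not tested. In the LoVo libraries 3 of 41, 5 of 48 and 2 of 37 such HCT116 genes stood above 1%, with medians of 0.0649%, 0.18% and 0%. For genes from CCD841CoN, 22 of 255 stood above 1% in LoVo replicate 2, against 5 of 207 in replicate 1 and 5 of 203 in replicate 3. From HT-29 these were 5 of 46, against 2 of 28 and 0 of 23, and from LS1034 4 of 64, against 0 of 53 and 3 of 51. By the first definition LoVo had no HCT116 marker to check. The part of these reads in the results was not tested beyond leaving out each library in turn.

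The lines differed in level at 3925 of the genes tested. LoVo was higher in the crypt stem cell receptor gene LGR5 (log2 fold change 8.04), the intestinal cadherin gene CDH17 (7.52), SMAD4 (3.90) and the p53 target MDM2 (2.03), and lower in the goblet cell peptide gene TFF3 (-8.45), the lysozyme gene LYZ (-10.61), the redox gene NQO1 (-4.62) and the HLA class I light chain gene B2M (-3.39). Of 14452 genes tested with edgeR's quasi-likelihood test, 3925 were called, with an adjusted p below 0.05 and a difference of at least 2-fold. Of these, 1982 were higher in LoVo and 1943 lower. Log2 fold changes are LoVo over HT-29, given with a standard error (SE). The SE was worked back from the test, as the absolute log2 fold change over the square root of the F value. For genes nearly without counts in a line, it can understate how far the fold moves between libraries. Where leaving out 1 library moved a fitted fold by more than 1.5 times, the value without it follows. Where that left a line with no count, the fold is given as a lower bound, with that line set at 3 counts over its other 2 libraries. The background against which every list below is read is thus 27.2% of tested genes called in either direction, 13.7% called higher and 13.4% called lower. Over all tested genes the median difference was 0.03 on the log2 scale. At least 8-fold differences made up 862 of the higher and 745 of the lower calls. The libraries of the lines did not overlap for 5862 tested genes (40.6%), among them 3698 of those called. Without HT-29 replicate 2 there were 1900 higher and 1600 lower calls, and the median log2 fold change of all genes moved to 0.15.

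**Figure D1:**
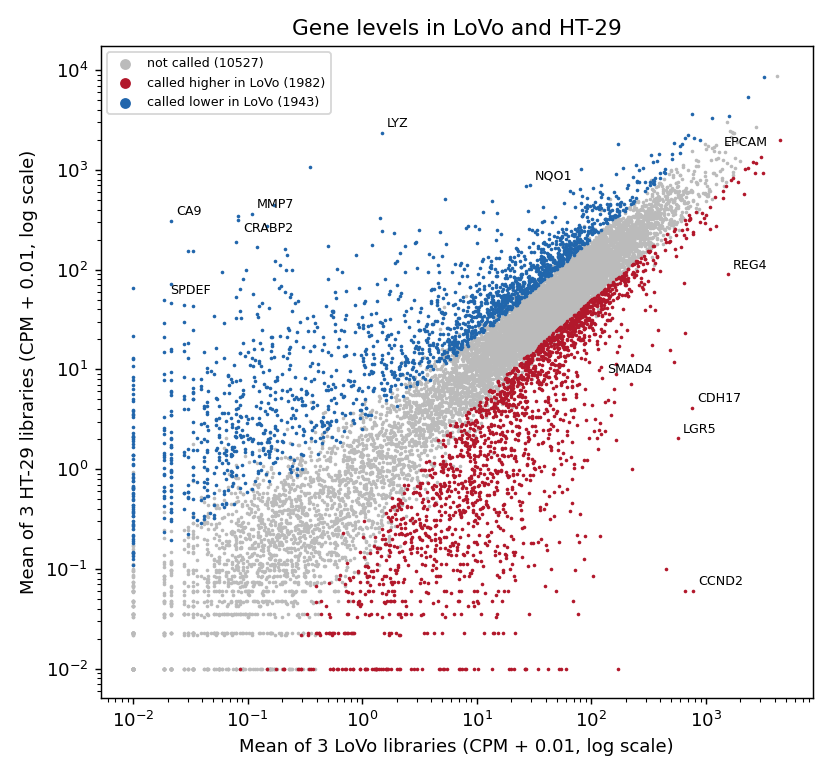
Mean level of each tested gene in the 3 LoVo libraries (horizontal axis) and in the 3 HT-29 libraries (vertical axis), in CPM plus 0.01 on log scales; colours mark the 1982 genes called higher and the 1943 called lower in LoVo. CCND2, LGR5 and CDH17 lie far to the right of the diagonal, and CA9, MMP7, CRABP2 and LYZ far above it, while EPCAM lies close to it.

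Many of the genes that differed most were on in one line and nearly silent in the other. With on set at a mean of at least 5 CPM with every library above 1 CPM, and off at a mean below 0.1 CPM, 81 genes were on in LoVo and off in HT-29, and 93 were on in HT-29 and off in LoVo. CCND2, cyclin D2, which drives entry into the cell cycle, stood at 710.2, 1186 and 404 CPM in LoVo and 0, 0.151 and 0 CPM in HT-29 (edgeR log2 fold change 13.51 ± 0.95 SE or 12.82 without HT-29 replicate 1 or at least 10060.0-fold higher without HT-29 replicate 2, adjusted p = 1.03e-07). CALB1, the calcium-binding protein calbindin, was at 976, 475 and 515 CPM in LoVo and 0.0345, 0.114 and 0 CPM in HT-29 (log2 fold change 13.29 ± 0.86 SE or 14.42 without HT-29 replicate 2, adjusted p = 1.76e-07). BCAT1, an enzyme of branched-chain amino acid metabolism, was at 896, 226 and 221 CPM in LoVo and 0, 0.0757 and 0.192 CPM in HT-29 (log2 fold change 12.67 ± 1.09 SE or 11.66 without LoVo replicate 1 or 11.91 without HT-29 replicate 1 or 13.40 without HT-29 replicate 3, adjusted p = 7.10e-07). For these genes the HT-29 libraries stayed below 0.2 CPM while LoVo expressed them abundantly. SPINK6, a protease inhibitor, was at 15.1, 106 and 41.8 CPM in LoVo and had no count in HT-29, which is at least 1192-fold higher when HT-29 is set at 3 counts over the group. HAND1, a transcription factor of heart and gut mesoderm, was at 27.9, 24.6 and 73.6 CPM in LoVo with no count in HT-29, at least 922-fold higher. HTRA1, a secreted serine protease, was at 28.2, 34.4 and 22.9 CPM in LoVo and 0, 0.0757 and 0 CPM in HT-29, a ratio of 1129.8 with a 95% counting interval of 269 to 8040. ALPP, placental alkaline phosphatase, was at 30.5, 126 and 75.4 CPM in LoVo and 0, 0.0757 and 0 CPM in HT-29, but it shares long stretches with ALPG and ALPI, so its counts are uncertain.

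In the other direction, CA9, a carbonic anhydrase known as a hypoxia-induced surface enzyme, stood at 0, 0.0346 and 0 CPM in LoVo and 449, 169 and 308 CPM in HT-29, and HT-29 exceeded LoVo by a ratio of 26771 with a 95% counting interval of 4510 to 992000. MMP7, matrilysin, an epithelial matrix metalloproteinase, was at 0.0527, 0.242 and 0 CPM in LoVo and 462, 262 and 371 CPM in HT-29 (log2 fold change -11.60 ± 0.84 SE or -13.00 without LoVo replicate 2, adjusted p = 4.78e-07). CRABP2, which carries retinoic acid to its receptor, was at 0.0791, 0.138 and 0 CPM in LoVo and 392, 259 and 379 CPM in HT-29 (log2 fold change -11.87 ± 0.59 SE, adjusted p = 1.08e-08). LYZ, lysozyme, was at 1.29, 2.11 and 0.997 CPM in LoVo and 2706, 1885 and 2471 CPM in HT-29 (log2 fold change -10.61 ± 0.57 SE, adjusted p = 4.75e-08). Every HT-29 library was above every LoVo library for all 4 genes. LYZ, and SERPINA1 and TM4SF4 given next, had LoVo means above the off limit of 0.1 CPM. They are therefore not among the genes counted as on in HT-29 and off in LoVo. SERPINA1, the antitrypsin gene, was at 0.0264, 0.45 and 0 CPM in LoVo and 583, 456 and 283 CPM in HT-29 (log2 fold change -11.25 ± 0.77 SE or -10.54 without LoVo replicate 1 or -14.09 without LoVo replicate 2, adjusted p = 2.83e-07). KLK6, a kallikrein protease, was at 0, 0.138 and 0.0767 CPM in LoVo and 314, 321 and 312 CPM in HT-29 (log2 fold change -12.14 ± 0.67 SE or -11.30 without LoVo replicate 1 or -13.55 without LoVo replicate 2, adjusted p = 4.98e-08). NTSR1, the neurotensin receptor, was at 0, 0.0346 and 0 CPM in LoVo and 72.6, 95.01 and 47.8 CPM in HT-29, higher in HT-29 by a ratio of 6225 with a 95% counting interval of 1110 to 245000. TM4SF4, a membrane protein of the tetraspan family, was at 0.158, 0.623 and 0.23 CPM in LoVo and 907, 723 and 1544 CPM in HT-29 (log2 fold change -11.57 ± 0.72 SE or -12.46 without LoVo replicate 2, adjusted p = 4.75e-08).

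Of the 81 genes on in LoVo, 16 had no count in any HT-29 library, 47 stood below 1 CPM in both LS1034 and HCT116, 20 reached 5 CPM in one of those lines and 0 in both. Of the 93 genes on in HT-29, 11 had no count in any LoVo library, 41 stood below 1 CPM in both other cancer lines, 28 reached 5 CPM in one and 11 in both. Reads in HT-29 replicate 2 can keep a gene that HCT116 expresses out of the LoVo-on group. The 0 for LoVo-on genes therefore cannot be set against the 11 for HT-29-on genes. This split was not redone without that library. Chromosome 19 held 1063 of the 14452 tested genes, and 229 of these were ZNF genes, which encode zinc finger proteins. On it lay 2 of the LoVo-on genes and 11 of the HT-29-on genes, and 8 of those 11 were ZNF genes. Counts of this kind depended on the levels chosen. Without HT-29 replicate 2, 203 genes were on in LoVo and off in HT-29 and 88 the other way. Of the 125 genes this added to the first group, 92 stood at 5 CPM or more in HCT116 and 121 were already called higher with all libraries. ELOVL5, a fatty acid elongase, is an example: it stood at 147, 165 and 84.6 CPM in LoVo and 0, 7.11 and 0.0962 CPM in HT-29 (log2 fold change 5.70 ± 1.04 SE or 12.07 without HT-29 replicate 2, adjusted p = 0.000632). GAL, the neuropeptide galanin, was at 79.5, 142 and 137 CPM in LoVo and 0, 8.51 and 0.0962 CPM in HT-29 (log2 fold change 5.31 ± 1.09 SE or 11.92 without HT-29 replicate 2, adjusted p = 0.00151). In both genes the HT-29 level came almost wholly from replicate 2; they are shown for this and lie outside the rule by which genes are named.

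The 300 bases around the start site were read from RefSeq for 1 gene of each pattern, to show the range of base composition, with every CG in capitals. NPTX2, neuronal pentraxin 2, stood at 10.02, 38.5 and 16.4 CPM in LoVo and 0, 0.0378 and 0 CPM in HT-29, a ratio of 1716 with a 95% counting interval of 252 to 55500; its window is chr7:98617035-98617334 on the plus strand of GRCh38.p14 and holds 39 CG pairs. That of MMP7 is chr11:102530698-102530997 on the minus strand and holds 4.
NPTX2: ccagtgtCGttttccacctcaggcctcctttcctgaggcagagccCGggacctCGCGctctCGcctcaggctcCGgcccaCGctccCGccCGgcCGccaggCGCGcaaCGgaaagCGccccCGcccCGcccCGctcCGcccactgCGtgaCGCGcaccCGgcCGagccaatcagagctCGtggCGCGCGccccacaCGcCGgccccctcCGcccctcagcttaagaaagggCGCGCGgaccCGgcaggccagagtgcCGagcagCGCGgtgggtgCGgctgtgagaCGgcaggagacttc
MMP7: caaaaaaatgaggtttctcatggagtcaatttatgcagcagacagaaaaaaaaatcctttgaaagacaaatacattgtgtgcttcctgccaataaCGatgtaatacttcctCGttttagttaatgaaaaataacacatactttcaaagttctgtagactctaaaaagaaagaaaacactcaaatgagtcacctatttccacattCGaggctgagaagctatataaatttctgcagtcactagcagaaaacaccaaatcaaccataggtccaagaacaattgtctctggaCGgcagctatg
A window counts here as CpG-rich with at least 50% G and C and a ratio of observed to expected CG of at least 0.6. That held for 36 of the 60 LoVo-on genes with a window (60.0%), for 24 of the 65 HT-29-on genes (36.9%) and for 8810 of 11556 tested genes (76.2%). The files hold no measure of DNA methylation.

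Intestinal identity genes were called in both directions, with more lower than higher calls in LoVo among the transcription factors, the enterocyte genes and the goblet genes. Of 25 tested intestinal transcription factors, 4 were called higher in LoVo and 7 lower. CDX2, the homeobox factor that specifies intestine, stood at 42.6, 76.3 and 92.9 CPM in LoVo and 4.004, 1.89 and 6.16 CPM in HT-29 (log2 fold change 4.16 ± 0.50 SE, adjusted p = 1.50e-05). GFI1, a repressor used in secretory lineages, was at 16.1, 16.99 and 21.6 CPM in LoVo and 0.449, 1.06 and 0.192 CPM in HT-29 (log2 fold change 4.91 ± 0.76 SE or 5.74 without HT-29 replicate 2, adjusted p = 0.00016). For both factors every LoVo library was above every HT-29 library. HNF4A, a nuclear receptor of enterocytes, was called higher (log2 fold change 1.33 ± 0.35 SE, adjusted p = 0.0104), but not without LoVo replicate 2, where the log2 fold change was 0.97 with adjusted p = 0.0552 (0.00191 to 0.0552 over the 14 alternatives). The factors lower in LoVo included those of secretory cells. SPDEF, which drives goblet cell maturation, was at 0.0264, 0 and 0 CPM in LoVo and 49.8, 49.6 and 50.9 CPM in HT-29, higher in HT-29 by a ratio of 5701 with a 95% counting interval of 715 to 157000. FOXA3 was at 0.105, 0.208 and 0 CPM in LoVo and 10.1, 9.497 and 5.58 CPM in HT-29 (log2 fold change -6.08 ± 0.71 SE or -6.75 without LoVo replicate 2, adjusted p = 2.35e-05). FOXA1 was at 54.6, 38.6 and 35.3 CPM in LoVo and 184, 172 and 172 CPM in HT-29 (log2 fold change -2.04 ± 0.45 SE, adjusted p = 0.00257); both are forkhead factors that open chromatin. ATOH1, the switch to the secretory fate, was called lower at low levels, 0.0264, 0 and 0 CPM in LoVo and 2.07, 1.17 and 6.64 CPM in HT-29. The enteroendocrine factor NEUROG3 had no count in LoVo and 1.59, 3.37 and 5.39 CPM in HT-29. KLF5, a factor of dividing crypt cells, was not called, at 766 ± 212 CPM in LoVo and 499.8 ± 88.3 CPM in HT-29 (SD, n = 3 each). SOX9, a factor of crypt base cells, was not called either, at 260.2 ± 55.1 CPM in LoVo and 264 ± 76.4 CPM in HT-29 (SD, n = 3 each).

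Of 33 tested enterocyte and brush border genes, 7 were called higher and 12 lower, with a median log2 fold change of -0.58. CDH17, the liver-intestine cadherin, stood at 846, 468 and 964 CPM in LoVo and 5.04, 3.63 and 3.66 CPM in HT-29 (log2 fold change 7.52 ± 0.64 SE, adjusted p = 1.61e-06). CEACAM5, the carcinoembryonic antigen, was at 281, 216 and 515 CPM in LoVo and 17.98, 26.3 and 8.56 CPM in HT-29 (log2 fold change 4.25 ± 0.61 SE, adjusted p = 0.00014). MYO1A, a brush border myosin, was at 28.2, 40.01 and 27.01 CPM in LoVo and 1.001, 0.87 and 1.73 CPM in HT-29 (log2 fold change 4.77 ± 0.48 SE, adjusted p = 6.37e-06). VIL1, villin, which bundles actin in microvilli, went the other way, at 16.2, 30.8 and 21.1 CPM in LoVo and 222, 196 and 195 CPM in HT-29 (log2 fold change -3.17 ± 0.38 SE, adjusted p = 3.30e-05). KRT20, a keratin of mature colon cells, was at 8.199, 1.25 and 6.37 CPM in LoVo and 424, 490.5 and 601 CPM in HT-29 (log2 fold change -6.58 ± 0.60 SE, adjusted p = 2.93e-06). LGALS4, a galectin of the same cells, was at 85.3, 23.6 and 134 CPM in LoVo and 1031, 961 and 1103 CPM in HT-29 (log2 fold change -3.68 ± 0.51 SE, adjusted p = 6.08e-05). CDHR5, a microvillus cadherin, was at 0.58, 0.242 and 0 CPM in LoVo and 30.4, 26.6 and 32.9 CPM in HT-29 (log2 fold change -6.51 ± 0.70 SE or -7.51 without LoVo replicate 1, adjusted p = 1.16e-05). Enterocyte genes thus stood on opposite sides, among them the brush border gene MYO1A against VIL1 and CDHR5. Libraries did not overlap in any of these 7. TSPAN8 and DPP4 were not called, and their libraries overlapped.

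Of 28 tested goblet and secretory genes, 5 were called higher and 13 lower, and the median was -1.63. REG4, a secreted lectin, was at 1274, 1271 and 2112 CPM in LoVo and 91.8, 112 and 65.7 CPM in HT-29 (log2 fold change 4.11 ± 0.40 SE, adjusted p = 5.45e-06). PLA2G2A, a secreted phospholipase, was at 16.8, 33.8 and 14.5 CPM in LoVo and 0.276, 0.568 and 0.866 CPM in HT-29 (log2 fold change 5.31 ± 0.85 SE, adjusted p = 0.000316). SPINK4, a goblet cell peptide, was at 9.62, 19.2 and 25.2 CPM in LoVo and 0.967, 0.946 and 0.866 CPM in HT-29 (log2 fold change 4.27 ± 0.90 SE, adjusted p = 0.00254). All 3 were higher in every LoVo library. TFF3, the trefoil peptide of goblet cells, was at 0.0264, 0.208 and 0 CPM in LoVo and 21.9, 29.2 and 46.9 CPM in HT-29 (log2 fold change -8.45 ± 0.76 SE or -7.82 without LoVo replicate 1 or -10.34 without LoVo replicate 2, adjusted p = 9.71e-07). The membrane mucin gene MUC20 was at 0.132, 0.346 and 0.23 CPM in LoVo and 53.6, 27.1 and 33.7 CPM in HT-29 (log2 fold change -7.33 ± 0.68 SE, adjusted p = 1.50e-06). CREB3L1, a factor of the secretory pathway, was at 6.14, 11.8 and 6.22 CPM in LoVo and 332, 249.8 and 195 CPM in HT-29 (log2 fold change -5.00 ± 0.43 SE, adjusted p = 7.10e-07). Like LYZ above, these 3 were higher in every HT-29 library. AGR2, a disulphide isomerase needed for mucin folding, was abundant in both lines and was not called, at 596 ± 303 CPM in LoVo and 891 ± 164 CPM in HT-29 (SD, n = 3 each). Among 33 tested enzymes that build mucin-type and Lewis sugar chains, 9 were called higher and 6 lower. ST3GAL1, a sialyltransferase that caps core chains, was at 7.94, 17.5 and 15.3 CPM in LoVo and 455, 543 and 461 CPM in HT-29 (log2 fold change -5.16 ± 0.65 SE, adjusted p = 2.29e-05). GALNT5, which starts such chains, was at 55.1, 104 and 64.5 CPM in LoVo and 9.49, 12.3 and 3.85 CPM in HT-29 (log2 fold change 3.11 ± 0.41 SE, adjusted p = 3.79e-05). GCNT1, which branches them, was at 27.4, 20.4 and 28.7 CPM in LoVo and 1.31, 2.54 and 0.289 CPM in HT-29 (log2 fold change 4.13 ± 0.72 SE or 4.90 without HT-29 replicate 2, adjusted p = 0.000456). FUT2, the secretor fucosyltransferase, was at 2.505, 4.33 and 2.46 CPM in LoVo and 20.8, 8.44 and 20.97 CPM in HT-29 (log2 fold change -2.42 ± 0.45 SE, adjusted p = 0.00073).

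**Figure D2:**
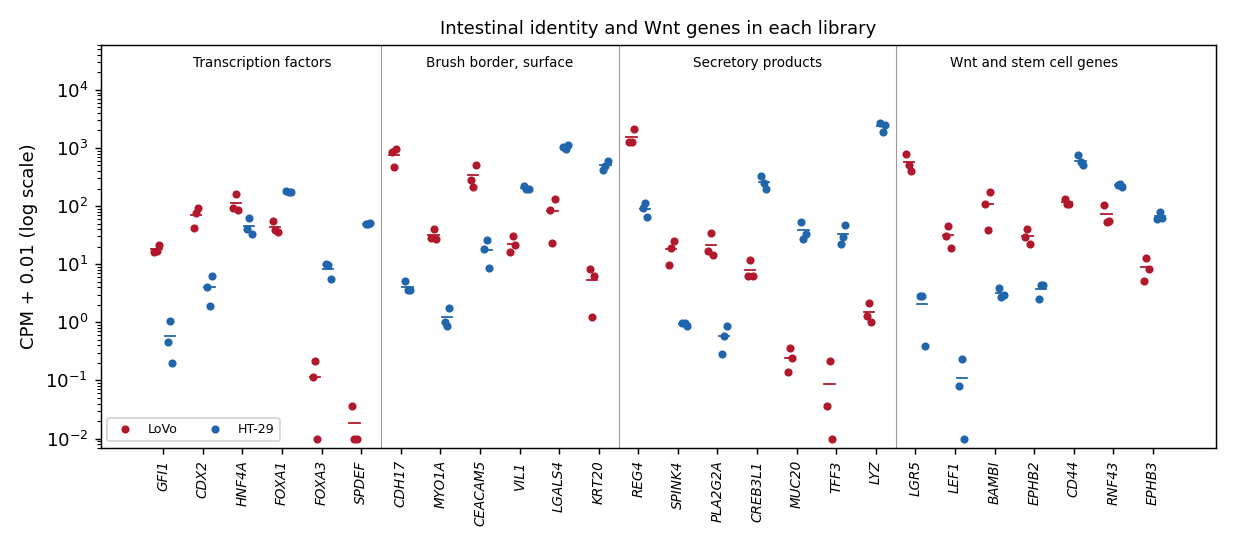
Level of 26 intestinal and Wnt pathway genes in each of the 3 LoVo (red) and 3 HT-29 (blue) libraries, in CPM plus 0.01 on a log scale; points are libraries and lines are means. The genes were picked from the lists after their values were seen. Within each panel some genes are higher in every LoVo library (CDX2, CDH17, REG4, LGR5) and others in every HT-29 library (SPDEF, VIL1, LYZ, CD44).

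Of 31 tested Wnt feedback and stem cell genes, 12 (38.7%) were called higher in LoVo and 10 (32.3%) lower, against 13.7% and 13.4% of all tested genes. LGR5, the crypt stem cell receptor for R-spondin, stood at 788, 517 and 404 CPM in LoVo and 2.83, 2.88 and 0.385 CPM in HT-29 (log2 fold change 8.04 ± 0.74 SE, adjusted p = 1.25e-06). LEF1, a partner of beta-catenin on DNA, was at 30.2, 46.3 and 18.8 CPM in LoVo and 0.069, 0.227 and 0 CPM in HT-29 (log2 fold change 8.01 ± 0.78 SE or 9.25 without HT-29 replicate 2, adjusted p = 2.10e-06). BAMBI, a decoy receptor induced by Wnt, was at 110.1, 38.2 and 178 CPM in LoVo and 3.901, 2.69 and 2.89 CPM in HT-29 (log2 fold change 5.10 ± 0.47 SE, adjusted p = 1.23e-06). EPHB2, a receptor of crypt base cells, was at 29.2, 39.6 and 22.6 CPM in LoVo and 2.52, 4.39 and 4.42 CPM in HT-29 (log2 fold change 3.02 ± 0.38 SE, adjusted p = 2.69e-05). In all 4 every LoVo library was higher. CD44, a hyaluronan receptor and Wnt target, was at 133, 110.1 and 111 CPM in LoVo and 744, 573 and 501 CPM in HT-29 (log2 fold change -2.36 ± 0.36 SE, adjusted p = 0.000144). RNF43, which removes Wnt receptors from the surface, was at 106, 53.02 and 56.4 CPM in LoVo and 232, 238 and 213 CPM in HT-29 (log2 fold change -1.67 ± 0.30 SE, adjusted p = 0.000788). EPHB3, of the same receptor family as EPHB2, was at 5.14, 13.01 and 8.29 CPM in LoVo and 58.99, 78.5 and 62.9 CPM in HT-29 (log2 fold change -2.92 ± 0.45 SE, adjusted p = 0.000153). SP5, a direct Wnt target, was at 0.87, 0.9 and 1.61 CPM in LoVo and 11.2, 5.64 and 10.2 CPM in HT-29 (log2 fold change -3.02 ± 0.53 SE, adjusted p = 0.00064). APCDD1, a Wnt inhibitor, was at 1.503, 1.32 and 0.997 CPM in LoVo with no count in HT-29, at least 27.9-fold higher. MYC and DKK1 were not called, and their libraries overlapped.

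Of 22 tested colorectal cancer driver genes, 2 were called in each direction. SMAD4, the shared partner of the receptor-activated SMAD proteins, stood at 195, 97.8 and 77.6 CPM in LoVo and 6.904, 13.5 and 4.14 CPM in HT-29 (log2 fold change 3.90 ± 0.46 SE or 4.51 without HT-29 replicate 2, adjusted p = 1.24e-05). CTNNB1, beta-catenin, was at 499, 519 and 436 CPM in LoVo and 195, 258 and 131 CPM in HT-29 (log2 fold change 1.31 ± 0.27 SE, adjusted p = 0.00173). TGFBR2, a TGF-beta receptor gene with a repeat that is often mutated in microsatellite-unstable tumours, was called lower (log2 fold change -1.16 ± 0.33 SE, adjusted p = 0.0128), but not without LoVo replicate 2, where the log2 fold change was -0.88 with adjusted p = 0.0521 (0.00132 to 0.0521 over the 14 alternatives). TCF7L2, a DNA-binding partner of beta-catenin, was called lower with overlapping libraries (log2 fold change -1.22 ± 0.39 SE, adjusted p = 0.0256). Its call was lost without LoVo replicate 2 or 3 or HT-29 replicate 1 or 2, so the lower count fell to 0 without LoVo replicate 2 and to 1 without each of the other 3. BRAF, a kinase of the MAPK route, and APC, which limits beta-catenin, were not called, with log2 fold changes of 0.80 and 0.16. Of 11 mismatch repair genes 3 were called higher and 0 lower by edgeR, with 2 lower at an unadjusted p below 0.05 and 0 called lower by DESeq2. Without LoVo replicate 2, and under the block on replicate number, 1 was called lower. MLH3, which acts after mismatch recognition, was at 59.8, 27.9 and 39.7 CPM in LoVo and 16.6, 13.3 and 14.9 CPM in HT-29 (log2 fold change 1.51 ± 0.36 SE, adjusted p = 0.00482). MSH3, a mismatch recognition subunit, was called (log2 fold change 1.05 ± 0.32 SE, adjusted p = 0.0195). Its call was lost under the block on the 12 cancer line libraries, where the log2 fold change was 0.96 with adjusted p = 0.00324, past the p limit but short of 2-fold (0.00324 to 0.114 over the 14 alternatives), and also without LoVo replicate 1 or HT-29 replicate 3.

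Of 39 tested TGF-beta and BMP pathway genes, 13 were called higher and 8 lower, and the median was 0.85. The ligand gene INHBA, activin A, was at 31.9, 15.3 and 70.1 CPM in LoVo and 0, 0.0757 and 0.0962 CPM in HT-29, a ratio of 682 with a 95% counting interval of 241 to 3420. BMP7, another ligand of the family, was at 15.4, 33.2 and 25.9 CPM in LoVo and 0.311, 0.492 and 0.577 CPM in HT-29 (log2 fold change 5.79 ± 0.89 SE, adjusted p = 0.000145). The BMP antagonist GREM1 was at 2.29, 7.99 and 3.91 CPM in LoVo and 0.0345, 0.151 and 0.385 CPM in HT-29 (log2 fold change 4.96 ± 0.78 SE or 4.33 without LoVo replicate 2 or 5.62 without HT-29 replicate 3, adjusted p = 0.000173). The response gene ID4 was at 4.11, 1.7996 and 12.7 CPM in LoVo and 0, 0.265 and 0 CPM in HT-29 (log2 fold change 5.83 ± 1.17 SE or 4.75 without LoVo replicate 3 or 5.14 without HT-29 replicate 1 or at least 81.2-fold higher without HT-29 replicate 2, adjusted p = 0.00129). LTBP3, which stores latent TGF-beta, was lower in LoVo, at 6.41, 7.89 and 8.29 CPM in LoVo and 56.9, 49.7 and 54.1 CPM in HT-29 (log2 fold change -2.83 ± 0.33 SE, adjusted p = 1.29e-05). PMEPA1, a feedback inhibitor, was at 12.3, 12.9 and 11.6 CPM in LoVo and 51.6, 73.1 and 42.5 CPM in HT-29 (log2 fold change -2.18 ± 0.38 SE, adjusted p = 0.000405). CCN2, connective tissue growth factor, was at 4.88, 5.47 and 3.22 CPM in LoVo and 26.1, 102 and 13.2 CPM in HT-29 (log2 fold change -3.37 ± 0.73 SE or -2.05 without HT-29 replicate 2, adjusted p = 0.00235). Its highest HT-29 value was in replicate 2.

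Of 38 tested targets of p53, 12 (31.6%) were called higher in LoVo, against 13.7% of all genes, and 4 lower, and the median was 0.96. MDM2, the ubiquitin ligase that p53 induces to limit itself, stood at 353, 277 and 194 CPM in LoVo and 60.3, 84.8 and 56.9 CPM in HT-29 (log2 fold change 2.03 ± 0.33 SE, adjusted p = 0.000243). FAS, a death receptor, was at 60.9, 45.7 and 42.2 CPM in LoVo and 7.94, 6.74 and 9.72 CPM in HT-29 (log2 fold change 2.61 ± 0.37 SE, adjusted p = 6.96e-05). PMAIP1, the BH3-only protein NOXA, was at 179, 50.1 and 161 CPM in LoVo and 19.2, 34.4 and 19.6 CPM in HT-29 (log2 fold change 2.41 ± 0.45 SE, adjusted p = 0.00075). SPATA18, a mitochondrial quality control gene, was at 32.1, 22.5 and 9.67 CPM in LoVo and 0.069, 0.0378 and 0.0962 CPM in HT-29 (log2 fold change 8.32 ± 1.04 SE, adjusted p = 2.33e-05). Every LoVo library was above every HT-29 library in these 4. CDKN1A, the cell cycle inhibitor p21, was called with overlapping libraries, at 111, 162 and 320.0 CPM in LoVo and 62.3, 116 and 42.2 CPM in HT-29 (log2 fold change 1.42 ± 0.44 SE, adjusted p = 0.0204), and the call was lost without LoVo replicate 3, HT-29 replicate 1 or HT-29 replicate 3. BAX, a pore-forming death protein whose gene has a repeat prone to slippage, was lower, at 16.98, 29.3 and 43.1 CPM in LoVo and 80.05, 75.3 and 148 CPM in HT-29 (log2 fold change -1.76 ± 0.41 SE, adjusted p = 0.00405). PLK2, a stress kinase, was at 96.5, 109 and 103 CPM in LoVo and 662, 924 and 406 CPM in HT-29 (log2 fold change -2.69 ± 0.36 SE, adjusted p = 3.83e-05). The p53-induced gene TP53I11 was at 19.6, 54.1 and 38.6 CPM in LoVo and 230.0, 234 and 252 CPM in HT-29 (log2 fold change -2.67 ± 0.39 SE, adjusted p = 8.37e-05). GDF15 and PERP overlapped and were not called.

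Of 22 tested CDK inhibitors, cyclins and RB genes, 3 were called higher and 3 lower, with a lower count of 1 without LoVo replicate 1 or HT-29 replicate 3. CDKN2A, the p16 and ARF locus, stood at 4.01, 4.499 and 7.75 CPM in LoVo and 133, 139 and 268 CPM in HT-29 (log2 fold change -5.07 ± 0.42 SE, adjusted p = 4.78e-07), opposite to CCND2. Of 28 tested BCL2 family and caspase genes, 5 were higher and 9 lower. BCL2 itself, which blocks mitochondrial death signals, was at 12.3, 13.3 and 7.29 CPM in LoVo and 0.138, 0 and 0.192 CPM in HT-29 (log2 fold change 6.75 ± 0.94 SE or 6.13 without HT-29 replicate 2, adjusted p = 6.26e-05). HRK, which opposes it, was at 23.6, 12.8 and 27.2 CPM in LoVo and 0, 0.378 and 0 CPM in HT-29 (log2 fold change 7.13 ± 1.16 SE or 6.48 without HT-29 replicate 1 or at least 278-fold higher without HT-29 replicate 2, adjusted p = 0.000369). CASP4, an inflammatory caspase, was at 18.7, 16.6 and 21.7 CPM in LoVo and 76.1, 56.9 and 62.4 CPM in HT-29 (log2 fold change -1.78 ± 0.28 SE, adjusted p = 0.000192). DNA replication and mitosis genes were rarely called: 1 of 39 was higher and 1 lower, though 0 were higher without LoVo replicate 3, HT-29 replicate 1 or HT-29 replicate 2, and 3 were lower without LoVo replicate 2 or 3 and 2 under the blocks. The lower one, TK1, thymidine kinase, was at 26.8, 156 and 123 CPM in LoVo and 284, 311 and 601 CPM in HT-29 (log2 fold change -1.97 ± 0.52 SE, adjusted p = 0.00895). TOP2A, topoisomerase II alpha, was not called, at 600.3 ± 104 CPM in LoVo and 508 ± 93.7 CPM in HT-29 (SD, n = 3 each).

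B2M, the invariant light chain of HLA class I, stood at 182, 64.3 and 271 CPM in LoVo and 2197, 1213 and 2012 CPM in HT-29 (log2 fold change -3.39 ± 0.48 SE, adjusted p = 7.42e-05). HLA-C, a class I heavy chain, was at 0.132, 0.0692 and 0.537 CPM in LoVo and 5.42, 3.22 and 6.54 CPM in HT-29 (log2 fold change -4.65 ± 0.59 SE or -5.52 without LoVo replicate 3, adjusted p = 2.71e-05), although reads of HLA genes can be split between close copies and lost to alleles unlike the genome sequence. ERAP2, which trims peptides, was at 5.11, 4.78 and 3.99 CPM in LoVo and 147, 96.8 and 90.4 CPM in HT-29 (log2 fold change -4.58 ± 0.47 SE, adjusted p = 3.27e-06). On the other side, PSMB9, an immunoproteasome subunit, was at 9.597, 21.7 and 34.5 CPM in LoVo and 3.31, 0.832 and 3.85 CPM in HT-29 (log2 fold change 3.06 ± 0.52 SE, adjusted p = 0.000373). Of 25 tested class I and peptide loading genes, 7 were called in each direction, with 4 higher without LoVo replicate 2 or HT-29 replicate 2. Of 9 class II genes 1 was higher and 3 lower, all at low levels, as in CD74, the invariant chain, at 0, 0.138 and 0 CPM in LoVo and 3.87, 1.25 and 2.69 CPM in HT-29. Interferon-stimulated genes stood at the background, 6 higher and 6 lower of 44 tested, with 10 lower when only the 6 compared libraries were fitted, with or without the block. EPSTI1, an interferon-induced gene, was at 11.996, 8.13 and 20.5 CPM in LoVo and 0.552, 0.454 and 1.64 CPM in HT-29 (log2 fold change 4.06 ± 0.68 SE or 4.73 without HT-29 replicate 3, adjusted p = 0.000324). UBE2L6, which attaches ISG15, was at 30.6, 38.4 and 57.01 CPM in LoVo and 6.8003, 2.31 and 5.87 CPM in HT-29 (log2 fold change 3.08 ± 0.58 SE, adjusted p = 0.000852). Both were higher in every LoVo library. IFITM2, a membrane restriction factor, was at 10.97, 12.6 and 25.9 CPM in LoVo and 128, 64.1 and 97.4 CPM in HT-29 (log2 fold change -2.56 ± 0.34 SE, adjusted p = 3.91e-05), higher in every HT-29 library. Of 27 chemokine and cytokine genes, 8 were higher and 4 lower. The alarmin IL33 was at 231, 116 and 321 CPM in LoVo and 11.3, 7.49 and 2.405 CPM in HT-29 (log2 fold change 4.95 ± 0.70 SE, adjusted p = 7.35e-05). The cytokine IL32 was at 41.2, 52.05 and 86.1 CPM in LoVo and 2.24, 0.757 and 0.673 CPM in HT-29 (log2 fold change 5.53 ± 0.59 SE or 6.38 without HT-29 replicate 1, adjusted p = 5.25e-06). IL1RN, which blocks the interleukin 1 receptor, was at 0.0527, 0.588 and 0.997 CPM in LoVo and 43.4, 35.4 and 37.3 CPM in HT-29 (log2 fold change -6.28 ± 0.83 SE or -5.64 without LoVo replicate 1 or -6.92 without LoVo replicate 3, adjusted p = 3.68e-05).

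Of 14 tested keratins 1 was called higher and 7 lower, with 4 lower without LoVo replicate 1 or 2 and 2 higher without LoVo replicate 2 or HT-29 replicate 2 or under the block on the 6 libraries. KRT8, a keratin of simple epithelia, was at 2246, 2928 and 4523 CPM in LoVo and 6019.8, 6224 and 13063 CPM in HT-29 (log2 fold change -1.38 ± 0.42 SE, adjusted p = 0.0192). Its partner KRT18 was at 1770.5, 1933 and 3331 CPM in LoVo and 4207, 3871 and 7913 CPM in HT-29 (log2 fold change -1.18 ± 0.39 SE, adjusted p = 0.0281); neither call held without LoVo replicate 1, LoVo replicate 2 or HT-29 replicate 3. Of 18 claudin and tight junction genes 1 was higher and 5 lower, or 3 lower without HT-29 replicate 1 or 2. CLDN3, a claudin of the tight junction, was at 18.2, 25.4 and 66.9 CPM in LoVo and 289, 259 and 349.6 CPM in HT-29 (log2 fold change -3.03 ± 0.51 SE or -3.75 without LoVo replicate 3, adjusted p = 0.000308). Occludin, OCLN, was at 151, 147 and 143 CPM in LoVo and 63.1, 63.5 and 37.6 CPM in HT-29 (log2 fold change 1.42 ± 0.28 SE, adjusted p = 0.00117). Of 25 cadherin and desmosome genes 9 were higher and 4 lower. DSG3, a desmosomal cadherin of stratified epithelium, was at 85.3, 25.2 and 106 CPM in LoVo and 0, 0.265 and 0 CPM in HT-29 (log2 fold change 9.36 ± 1.08 SE or 8.65 without HT-29 replicate 1 or at least 948-fold higher without HT-29 replicate 2, adjusted p = 2.10e-05). Its relative DSC3 was at 110.0, 92.4 and 71.1 CPM in LoVo and 0.069, 3.59 and 0 CPM in HT-29 (log2 fold change 6.11 ± 1.07 SE or 10.75 without HT-29 replicate 2, adjusted p = 0.000654). JUP, plakoglobin, which links both to keratins, was at 70.6, 154 and 145 CPM in LoVo and 619.5, 686 and 432 CPM in HT-29 (log2 fold change -2.23 ± 0.33 SE, adjusted p = 0.000119). Desmosomal cadherins and their plaque protein were thus called in opposite directions. Of 20 EMT factors and splicing regulators 3 were higher and 2 lower, with 0 higher without HT-29 replicate 1 or 3 and 1 without LoVo replicate 2 or 3. ESRP1, an epithelial splicing regulator, was at 66.1, 16.6 and 42.05 CPM in LoVo and 209.9, 187 and 115 CPM in HT-29 (log2 fold change -2.04 ± 0.49 SE, adjusted p = 0.00567).

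Of 26 integrin and laminin genes, 5 were called higher, or 3 without LoVo replicate 1 or HT-29 replicate 1, and 7 lower. ITGB5, an integrin chain that pairs with alpha V, was at 88.7, 94.1 and 92.3 CPM in LoVo and 514, 504 and 535 CPM in HT-29 (log2 fold change -2.50 ± 0.29 SE, adjusted p = 1.28e-05). ITGA3, a laminin receptor chain, was at 29.6, 38.8 and 45.9 CPM in LoVo and 182, 216 and 149.8 CPM in HT-29 (log2 fold change -2.26 ± 0.27 SE, adjusted p = 1.53e-05). LAMA4, a laminin chain, was at 21.3, 14.6 and 23.3 CPM in LoVo and 0, 0.605 and 0 CPM in HT-29 (log2 fold change 6.38 ± 0.97 SE or 5.72 without HT-29 replicate 1 or at least 259-fold higher without HT-29 replicate 2, adjusted p = 0.000138). Of 31 serine proteases and inhibitors, 2 were higher and 17 lower, with a median of -1.64; without LoVo replicate 2 the higher count was 4. PRSS8, prostasin, a membrane protease, was at 0.211, 0.277 and 0 CPM in LoVo and 156, 104 and 102 CPM in HT-29 (log2 fold change -9.26 ± 0.66 SE, adjusted p = 3.95e-07). The 2 higher genes belong to the serpin family, as does SERPINA1, which was called lower. SERPINB5, maspin, was at 722, 586 and 611 CPM in LoVo and 53.2, 87.03 and 82.2 CPM in HT-29 (log2 fold change 3.11 ± 0.36 SE, adjusted p = 1.28e-05). SERPINE2, which inhibits thrombin and related proteases, was at 752, 329 and 907 CPM in LoVo and 11.8, 20.4 and 37.7 CPM in HT-29 (log2 fold change 4.84 ± 0.56 SE, adjusted p = 1.06e-05). Of 24 matrix metalloproteinase, ADAM and TIMP genes 3 were higher and 6 lower. ADAM8, a membrane metalloproteinase, was at 0.0527, 0.173 and 0.0767 CPM in LoVo and 70.6, 57.3 and 41.7 CPM in HT-29 (log2 fold change -9.05 ± 1.05 SE or -9.74 without LoVo replicate 2, adjusted p = 1.16e-05). ADAM10, the broad surface sheddase, was not called, at 353 ± 109 CPM in LoVo and 336 ± 56.99 CPM in HT-29 (SD, n = 3 each). Of 11 tested S100 genes 1 was higher and 8 lower, or 5 lower without LoVo replicate 1. S100 proteins bind calcium. S100A6 was at 452, 787 and 841 CPM in LoVo and 2173, 1802 and 2669.9 CPM in HT-29 (log2 fold change -1.68 ± 0.33 SE, adjusted p = 0.00127). S100A4 was at 25.6, 38.6 and 54.6 CPM in LoVo and 195, 183 and 165 CPM in HT-29 (log2 fold change -2.19 ± 0.37 SE, adjusted p = 0.000352). S100A14 went the other way, at 227, 264 and 408 CPM in LoVo and 77.9, 60.8 and 30.4 CPM in HT-29 (log2 fold change 2.41 ± 0.41 SE, adjusted p = 0.000559).

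Of 34 receptor tyrosine kinases and ligands 7 were higher and 12 lower. FLT1, a VEGF receptor, was at 9.75, 7.48 and 9.21 CPM in LoVo and 0.0345, 0.114 and 0.0962 CPM in HT-29 (log2 fold change 6.74 ± 0.65 SE, adjusted p = 2.00e-06). FGF19, an intestinal hormone of bile acid control, was at 0.211, 0.0346 and 0 CPM in LoVo and 87.6, 61.2 and 93.01 CPM in HT-29 (log2 fold change -9.50 ± 1.05 SE or -11.40 without LoVo replicate 1, adjusted p = 7.42e-06). IGFBP4, an IGF-binding protein, was at 5.96, 11.1 and 7.83 CPM in LoVo and 248, 198 and 377 CPM in HT-29 (log2 fold change -5.04 ± 0.73 SE, adjusted p = 8.44e-05). MET, the hepatocyte growth factor receptor, was not called, at 551 ± 156 CPM in LoVo and 610.4 ± 168 CPM in HT-29 (SD, n = 3 each). Of 29 EGF ligand, ERBB and MAPK output genes 4 were higher and 4 lower, or 2 lower without HT-29 replicate 2. TGFA, a ligand of the EGF receptor, was at 32.3, 35.6 and 33.9 CPM in LoVo and 88.9, 124 and 83.6 CPM in HT-29 (log2 fold change -1.54 ± 0.27 SE, adjusted p = 0.000585). PHLDA1, a MAPK-induced gene, was at 754, 203 and 706 CPM in LoVo and 98.1, 173 and 139 CPM in HT-29 (log2 fold change 2.02 ± 0.45 SE, adjusted p = 0.00265). EGR1, an immediate early gene, was called lower with overlapping libraries, at 14.5, 8.098 and 20.6 CPM in LoVo and 52.99, 242 and 9.91 CPM in HT-29 (log2 fold change -2.83 ± 0.80 SE or -1.09 without HT-29 replicate 2, adjusted p = 0.0127), but not without LoVo replicate 2 or HT-29 replicate 2. Under the block on the 6 libraries its log2 fold change was -1.93 with adjusted p = 0.0572 (0.000677 to 0.213 over the 14 alternatives). Of 39 Eph, semaphorin, slit and netrin genes 11 were higher and 10 lower. NRP2, a semaphorin and VEGF co-receptor, was at 22.5, 33.6 and 18.95 CPM in LoVo and 0.311, 0.605 and 0 CPM in HT-29 (log2 fold change 6.13 ± 0.62 SE or 6.95 without HT-29 replicate 2, adjusted p = 3.04e-06). SEMA4A, a membrane semaphorin, was at 0, 0.242 and 0 CPM in LoVo and 23.3, 22.6 and 9.43 CPM in HT-29 (log2 fold change -7.62 ± 1.26 SE or -6.89 without LoVo replicate 1 or at least 313-fold lower without LoVo replicate 2, adjusted p = 0.000276). Of 19 Notch pathway genes 5 were higher and 1 lower. The higher count was 3 without LoVo replicate 1, HT-29 replicate 1 or HT-29 replicate 3, and the lower count 2 without either of those HT-29 libraries. NOTCH3, a receptor of the pathway, was at 8.91, 11.4 and 17.6 CPM in LoVo and 0.276, 2.35 and 0.385 CPM in HT-29 (log2 fold change 3.58 ± 0.69 SE or 5.34 without HT-29 replicate 2, adjusted p = 0.001). LFNG, which modifies Notch receptors, was at 1.32, 2.32 and 1.46 CPM in LoVo and 11.05, 25.7 and 15.3 CPM in HT-29 (log2 fold change -3.35 ± 0.56 SE, adjusted p = 0.000323).

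HOX genes encode factors that set position along the body axis. Of 32 tested 8 were called higher and 12 lower, with 5 higher without LoVo replicate 3 or HT-29 replicate 1. HOXD13, the last gene of the D cluster, was at 14.4, 12.4 and 17.7 CPM in LoVo and 0.828, 0.265 and 0 CPM in HT-29 (log2 fold change 5.17 ± 0.84 SE or 6.45 without HT-29 replicate 1, adjusted p = 0.000594). HOXD8 was at 29.1, 8.41 and 24.7 CPM in LoVo and 0.0345, 0.378 and 0 CPM in HT-29 (log2 fold change 6.98 ± 0.95 SE or 9.45 without HT-29 replicate 2, adjusted p = 5.04e-05). HOXC4 had no count in LoVo and 2.76, 2.88 and 0.673 CPM in HT-29. HOXB7 and HOXA10 were not called. Of 11 tested genes of the cancer testis list, 1 was higher, or 2 without HT-29 replicate 2, and 5 lower. Many such genes are normally limited to germ cells, but the list also holds relatives, such as MAGED1, that are not. MAGED1 was at 1.32, 4.91 and 0.767 CPM in LoVo and 201, 168 and 145 CPM in HT-29 (log2 fold change -6.15 ± 0.53 SE or -7.28 without LoVo replicate 2, adjusted p = 7.10e-07). MAGEA6 was at 0.29, 1.004 and 0.537 CPM in LoVo and 23.1, 22.9 and 4.23 CPM in HT-29 (log2 fold change -4.77 ± 0.84 SE or -5.39 without LoVo replicate 2, adjusted p = 0.000697), though its reads cannot be told apart well from those of MAGEA3. MAGEB2 was called lower on reads of HT-29 replicate 2 alone, which held 9.91 CPM while the other 5 libraries held 0. Its call was lost without HT-29 replicate 2 or LoVo replicate 1, and it fell below the limit on low counts in 2 of the alternatives.

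Of 34 tested hypoxia and glycolysis genes, 1 was called higher and 12 lower, against 13.4% lower in the background, and the median was -0.75. SLC2A1, the glucose transporter GLUT1, stood at 127, 131 and 232 CPM in LoVo and 1112, 925 and 695 CPM in HT-29 (log2 fold change -2.48 ± 0.41 SE, adjusted p = 0.000295). PGK1, phosphoglycerate kinase, was at 519, 602 and 472 CPM in LoVo and 2809.9, 1442 and 1343 CPM in HT-29 (log2 fold change -1.81 ± 0.28 SE, adjusted p = 0.000168). LDHA, lactate dehydrogenase, was at 1092, 1585 and 752 CPM in LoVo and 4919, 2453 and 2607 CPM in HT-29 (log2 fold change -1.54 ± 0.34 SE, adjusted p = 0.00275). CA12, a carbonic anhydrase related to CA9, was at 43.2, 41.01 and 30.998 CPM in LoVo and 409, 294 and 223 CPM in HT-29 (log2 fold change -3.01 ± 0.44 SE, adjusted p = 0.000103). Every HT-29 library was above every LoVo library for these 4, as for CA9. BNIP3, a mitophagy receptor also induced in hypoxia, was the 1 gene called higher, at 32.3, 23.5 and 42.6 CPM in LoVo and 0.828, 5.86 and 0.577 CPM in HT-29 (log2 fold change 3.70 ± 0.63 SE or 5.52 without HT-29 replicate 2, adjusted p = 0.000372). The glycolytic enzyme genes GAPDH and ENO1 were not called, with log2 fold changes of 0.03 and -0.97. ENO1 was called lower without LoVo replicate 2 and under both blocks on replicate number, where the log2 fold change was -1.06 with adjusted p = 0.00505 in the fit of 12 libraries (0.00505 to 0.169 over the 14 alternatives). Culture density and oxygen are not given in the labels, and their part was not tested.

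Hypoxia-inducible factors bind DNA at core letters that include ACGTG. Other forms of the core were not searched for. The windows of CA9 and PGK1 are printed as examples from the genes called lower, picked after their values were seen, with ACGTG or its reverse complement CACGT in capitals. The CA9 window, chr9:35673678-35673977 on the plus strand, holds 1 match, and the PGK1 window, chrX:78103998-78104297 on the plus strand, holds 3.
CA9: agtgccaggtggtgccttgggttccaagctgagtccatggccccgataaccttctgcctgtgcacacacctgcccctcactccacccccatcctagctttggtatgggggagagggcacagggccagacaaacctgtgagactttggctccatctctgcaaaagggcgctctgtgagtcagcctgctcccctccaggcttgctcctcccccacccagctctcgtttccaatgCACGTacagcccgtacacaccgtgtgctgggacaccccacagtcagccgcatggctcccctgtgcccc
PGK1: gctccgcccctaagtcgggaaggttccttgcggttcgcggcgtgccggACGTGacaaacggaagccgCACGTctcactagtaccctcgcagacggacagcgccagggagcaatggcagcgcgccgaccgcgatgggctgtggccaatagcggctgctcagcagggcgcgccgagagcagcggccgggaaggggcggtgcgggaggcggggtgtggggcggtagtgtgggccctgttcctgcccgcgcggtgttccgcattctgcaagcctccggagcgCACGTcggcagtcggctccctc
On either strand, 12 of 31 list members with a window held the letters (38.7%), 5 of 11 called lower (45.5%) and 6 of 19 not called (31.6%), against 2958 of 11556 tested genes (25.6%). A match of 5 letters is a description of the sequence and does not show binding.

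Redox genes linked to NRF2, the factor that answers oxidative stress, were more often lower: of 30 tested, 2 were called higher and 13 lower (43.3%, against 13.4% of all genes). NQO1, a quinone reductase and a standard NRF2 target, stood at 29.6, 17.9 and 39.3 CPM in LoVo and 684, 668 and 786 CPM in HT-29 (log2 fold change -4.62 ± 0.38 SE, adjusted p = 4.85e-07). AKR1B10, an aldo-keto reductase, was at 15.3, 4.64 and 13.8 CPM in LoVo and 224, 444 and 466 CPM in HT-29 (log2 fold change -5.07 ± 0.48 SE, adjusted p = 1.82e-06). GPX2, the gut glutathione peroxidase, was at 217, 180.1 and 336 CPM in LoVo and 1224, 989 and 1159.7 CPM in HT-29 (log2 fold change -2.20 ± 0.40 SE, adjusted p = 0.000915). TALDO1, an enzyme of the pentose phosphate route, was at 122, 247 and 263 CPM in LoVo and 650.1, 617 and 873 CPM in HT-29 (log2 fold change -1.76 ± 0.30 SE, adjusted p = 0.000328). ME1, malic enzyme, was called higher, at 473, 207 and 389.6 CPM in LoVo and 102, 105 and 138 CPM in HT-29 (log2 fold change 1.63 ± 0.31 SE, adjusted p = 0.000978). GSTM3, a glutathione transferase, was the other gene called higher, at 5.64, 7.34 and 11.97 CPM in LoVo and 0.104, 0.0757 and 0.289 CPM in HT-29 (log2 fold change 5.97 ± 0.63 SE, adjusted p = 4.59e-06). PRDX1 and GSTP1 were abundant in both lines and were not called. FTL, the ferritin light chain, which NRF2 also induces and which stood outside this list, had one of the largest differences in level, at 693, 507 and 1067 CPM in LoVo and 3491, 2921 and 4379.8 CPM in HT-29 (log2 fold change -2.25 ± 0.36 SE, adjusted p = 0.000226).

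The retinoic acid carriers CRABP1 and CRABP2 stood on opposite sides. CRABP1 was at 9.86, 21.9 and 27.9 CPM in LoVo with no count in HT-29, at least 436-fold higher. CRABP2, given above, was high in HT-29. CYP26A1, which degrades retinoic acid, was at 3.85, 8.93 and 4.07 CPM in LoVo and 0.242, 0.151 and 0 CPM in HT-29 (log2 fold change 5.18 ± 0.97 SE or 5.84 without HT-29 replicate 1, adjusted p = 0.00104). In all, of 39 xenobiotic, aldehyde and retinoid genes 9 were higher and 12 lower. CYP2J2, an epoxygenase, was at 47.4, 57.4 and 37.5 CPM in LoVo and 0.967, 0.681 and 0.0962 CPM in HT-29 (log2 fold change 6.21 ± 0.54 SE, adjusted p = 7.49e-07). Among drug exporters, ABCB1, P-glycoprotein, was at 41.8, 48.8 and 30.2 CPM in LoVo and 0.069, 0.416 and 0 CPM in HT-29 (log2 fold change 7.67 ± 0.60 SE or 9.57 without HT-29 replicate 2, adjusted p = 3.01e-07). ABCG2, the breast cancer resistance protein, was at 10.6, 15.4 and 7.83 CPM in LoVo and 124, 74.9 and 55.4 CPM in HT-29 (log2 fold change -2.91 ± 0.40 SE, adjusted p = 5.50e-05). ABCC3, an exporter of organic anions, was at 99.7, 43.1 and 104 CPM in LoVo and 507, 558 and 337 CPM in HT-29 (log2 fold change -2.51 ± 0.33 SE, adjusted p = 3.61e-05). Of 18 ABC transporters 3 were higher and 4 lower, or 7 lower under the block on the 6 libraries. Of 20 thymidylate and fluoropyrimidine genes 3 were higher and 2 lower, with 1 higher without LoVo replicate 3 or HT-29 replicate 1 and 4 lower without LoVo replicate 2. DPYD, which degrades fluorouracil, was at 4.59, 2.53 and 0.921 CPM in LoVo and 23.1, 15.3 and 20.2 CPM in HT-29 (log2 fold change -2.83 ± 0.66 SE or -3.43 without LoVo replicate 1, adjusted p = 0.00401). GGH, which trims folates, was at 82.6, 106 and 99.9 CPM in LoVo and 32.7, 32.2 and 14.2 CPM in HT-29 (log2 fold change 1.86 ± 0.39 SE, adjusted p = 0.00167).

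Of 31 cholesterol and fatty acid synthesis genes 4 were higher and 10 lower, but the lower count was 5 without LoVo replicate 1 and 6 without LoVo replicate 3 or HT-29 replicate 1. SCD, the stearoyl-CoA desaturase, was at 144, 335 and 86.3 CPM in LoVo and 1356, 995 and 799 CPM in HT-29 (log2 fold change -2.48 ± 0.44 SE or -3.18 without LoVo replicate 2, adjusted p = 0.000535). PLIN2, which coats lipid droplets, was at 0.211, 0.138 and 0 CPM in LoVo and 13.6, 9.19 and 11.6 CPM in HT-29 (log2 fold change -6.27 ± 0.41 SE, adjusted p = 5.56e-08). FADS1, which desaturates polyunsaturated chains, was at 140.4, 185 and 148 CPM in LoVo and 4.11, 11.7 and 2.98 CPM in HT-29 (log2 fold change 4.63 ± 0.44 SE or 5.51 without HT-29 replicate 2, adjusted p = 1.76e-06). Of 8 metallothioneins 3 were called higher and 0 lower by edgeR, with 0 lower at an unadjusted p below 0.05 and 0 called lower by DESeq2. MT1M was at 19.5, 40.4 and 21.3 CPM in LoVo with no count in HT-29, at least 594-fold higher, but these genes are near copies of each other and their counts are uncertain. Of 13 mitochondrially encoded genes 0 were called higher by edgeR, with 0 higher at an unadjusted p below 0.05 and 0 called higher by DESeq2. The count lower was also 0, with 0 lower at an unadjusted p below 0.05 and 0 called lower by DESeq2. Their summed level varied widely within each line, at 8521, 3912 and 5117 CPM in LoVo and 11110, 7192 and 1178 CPM in HT-29. The lack of calls therefore does not show equal levels. Of 15 replication-dependent histone genes 0 were called higher by edgeR, with 0 higher at an unadjusted p below 0.05 and 0 called higher by DESeq2. Lower were 4, or 2 without LoVo replicate 3 or HT-29 replicate 1.

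**Figure D3:**
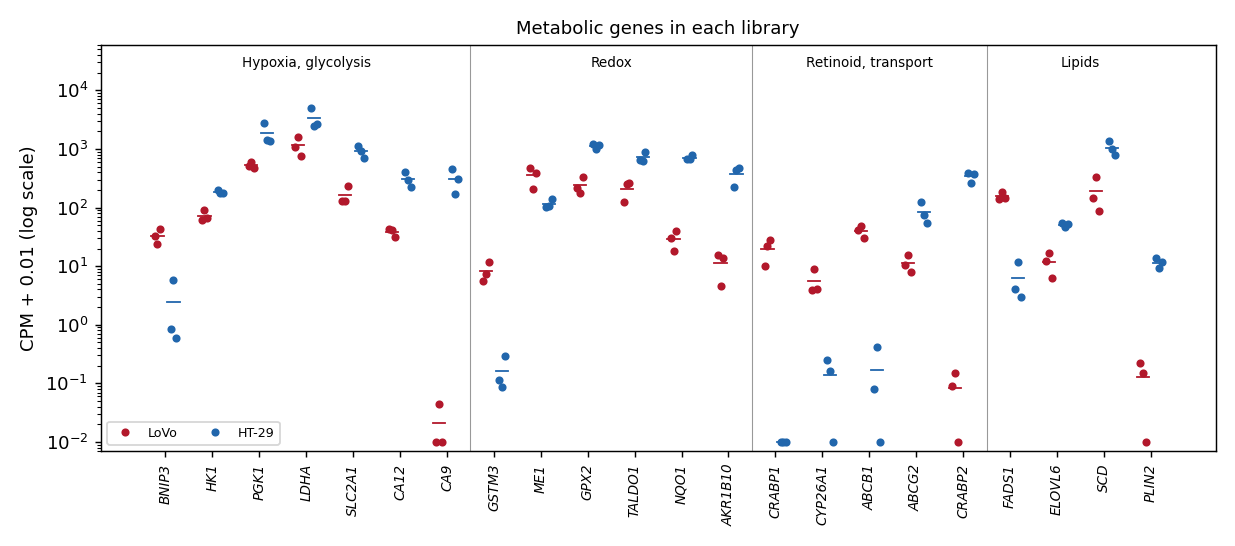
Level of 22 metabolic genes in each of the 3 LoVo (red) and 3 HT-29 (blue) libraries, in CPM plus 0.01 on a log scale; points are libraries and lines are means. The genes were picked from the lists after their values were seen. CA9 and CRABP2 lie near 0 in LoVo, CRABP1 and ABCB1 near 0 in HT-29.

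**Figure D4:**
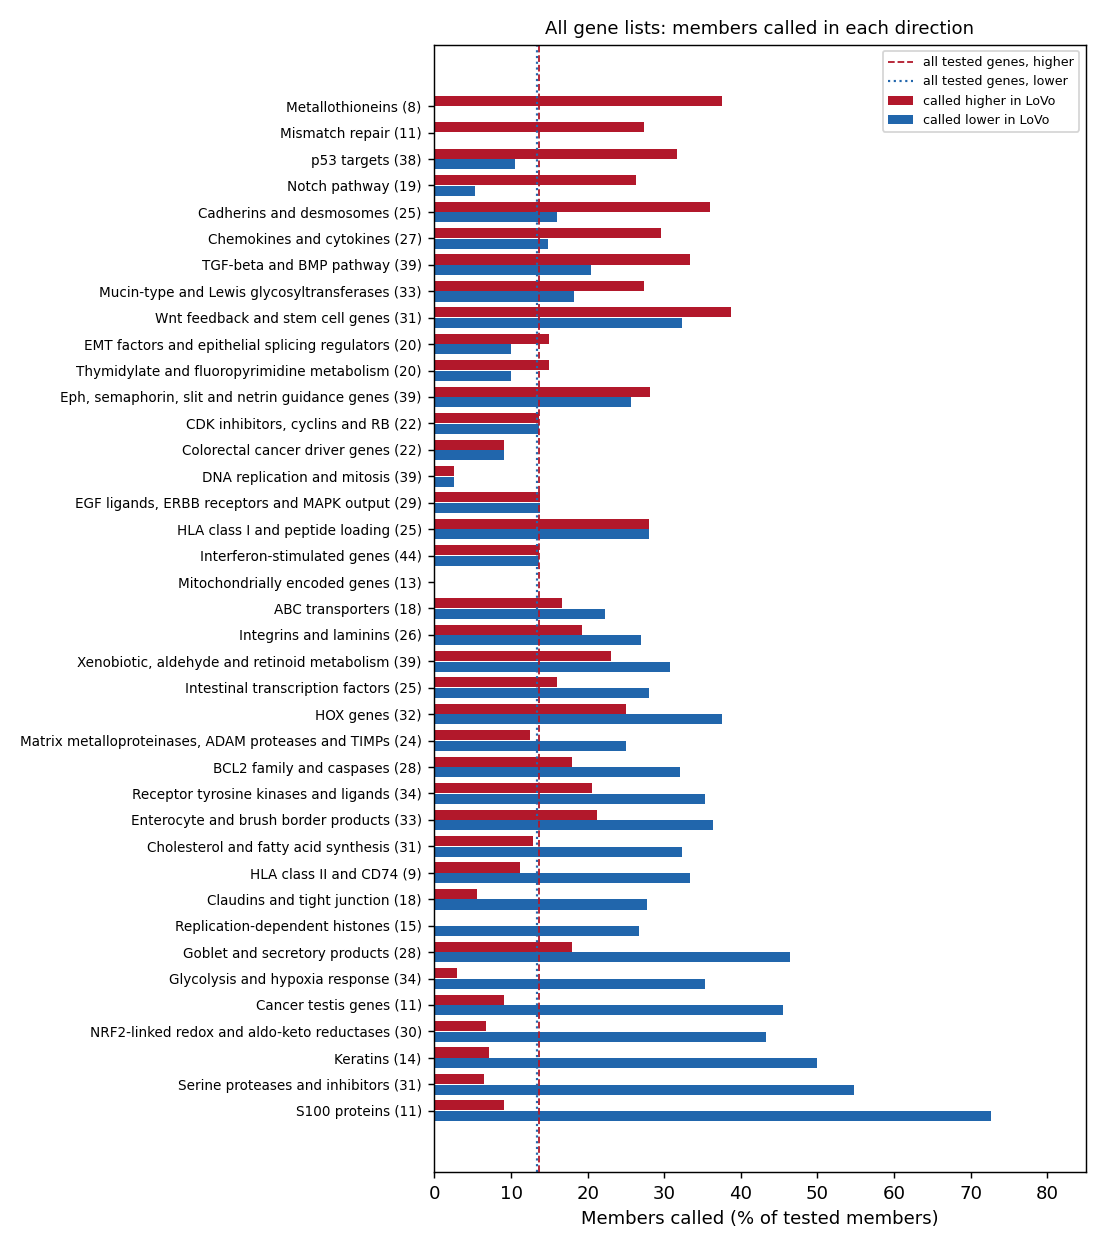
Percent of the tested members called higher (red) and lower (blue) in LoVo for each of the 39 gene lists, with the number tested in brackets; lines give the same over all tested genes, 13.7% higher and 13.4% lower. p53 targets lie towards the top with 31.6% higher, and S100 proteins and serine proteases at the bottom with 72.7% and 54.8% lower.

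Protein synthesis genes were among those with the largest differences in level. EEF1A1, the elongation factor that brings tRNA to the ribosome, stood at 4937, 3497 and 4933 CPM in LoVo and 2081, 1901 and 1929 CPM in HT-29 (log2 fold change 1.18 ± 0.27 SE, adjusted p = 0.00362). RPLP0, a large subunit protein, was at 3206, 2091 and 4107 CPM in LoVo and 1017, 799.6 and 954 CPM in HT-29 (log2 fold change 1.76 ± 0.30 SE, adjusted p = 0.00034). HSPA9, the mitochondrial chaperone mortalin, was at 2480.2, 1418 and 2589.8 CPM in LoVo and 482, 651 and 599.8 CPM in HT-29 (log2 fold change 1.90 ± 0.28 SE, adjusted p = 8.51e-05). In a list drawn up by symbol after the data were seen, 23 of 83 cytosolic ribosomal protein genes were called higher, with a median of 0.78, and 0 lower by edgeR, with 0 lower at an unadjusted p below 0.05 and 0 called lower by DESeq2. The higher count was 40 without LoVo replicate 2 and 15 without LoVo replicate 3. Ribosomal protein genes have many processed pseudogenes, so their counts are uncertain. On the side of HT-29, the largest differences included KRT8, KRT18, FTL, LYZ and LDHA, given above.

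Whole chromosomes sat off the median of all genes. The median log2 fold change was 0.57 for chromosome 21, 0.50 for chromosome 14, 0.48 for chromosome 12, 0.41 for chromosome 5 and 0.39 for chromosome 18, and -0.58 for chromosome 11, -0.53 for chromosome 20, -0.37 for chromosome 19 and -0.35 for chromosome X, against 0.03 over all genes. The order depended on HT-29 replicate 2. Without it the median was 0.66 for chromosome 18, 0.60 for chromosome 14, 0.56 for chromosome 12, 0.55 for chromosome 5 and 0.54 for chromosome 21. On the other side it was then -0.52 for chromosome 11, -0.43 for chromosome 20, -0.24 for chromosome X and -0.18 for chromosome 19. The median over all genes of the main fit was then 0.13, so part of these moves was shared by all genes. When each library was left out in turn, the distance from the median of all genes lay between 0.41 and 0.59 for chromosome 21, 0.44 and 0.52 for chromosome 14, -0.65 and -0.52 for chromosome 11, -0.63 and -0.47 for chromosome 20, and -0.53 and -0.22 for chromosome 19. Chromosome 19 holds many ZNF genes. In a list drawn up by symbol after the data were seen, 22 of its 229 tested ZNF genes were called higher and 69 lower, with 14 higher without HT-29 replicate 3. These are 9.61% higher and 30.1% lower, against 7.71% and 22.4% of all tested genes of chromosome 19. Copy number was not measured in these libraries, and neighbouring genes are not independent of each other.

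**Figure D5:**
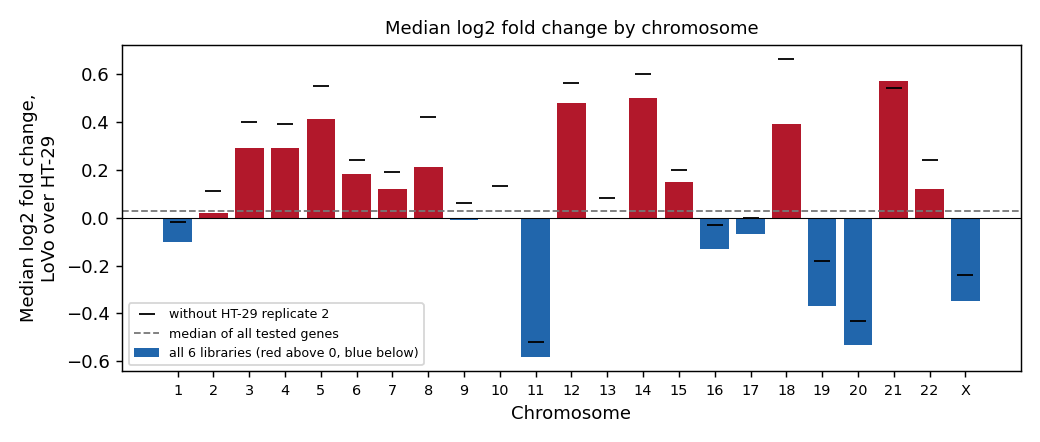
Median log2 fold change (LoVo over HT-29) of the tested genes of each chromosome; bars use all 6 libraries, dashes leave out HT-29 replicate 2, and the dashed line is the median of all tested genes, 0.03. With all 6 libraries chromosomes 21, 14 and 12 are the highest and chromosomes 11, 20 and 19 the lowest. Without HT-29 replicate 2, the median of all these genes is 0.13, chromosome 18 is the highest and chromosome X lies below chromosome 19.

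The mixtures with 50% cancer RNA in CCD841CoN RNA, 1 library for each line, kept the directions of most calls. Of 1965 genes called higher in LoVo and counted in either mixture, 1909 (97.2%) were higher in the LoVo mixture. Of 1919 genes called lower, 1681 (87.6%) were lower in the LoVo mixture than in the HT-29 mixture. Among calls of at least 8-fold, 822 of 846 higher genes (97.2%) and 604 of 724 lower genes (83.4%) kept their direction. Why the lower genes did so less often was not tested. The RNA may be that of the unmixed libraries, so the mixtures are no separate replicate.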

How the data were processed

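Total RNA of cell lines was sequenced from stranded libraries after ribosomal RNA removal, per the labels' protocols. The authors deposited 1 table of raw read counts per gene symbol for 31 libraries, made with STAR and featureCounts on hg19 per the submitters' processing notes, with no versions and no strand setting given in the sources used here. Reads of near copies, overlapping genes and antisense genes may therefore be shared. Gene symbols were matched to RefSeq GRCh38.p14 for chromosomes (14443 of 14452 tested genes) and start-site windows only.

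Groups followed the labels. The 15 unmixed libraries of 5 lines were fitted together, so that all lines gave the estimate of the spread, with filterByExpr, TMM scaling and the quasi-likelihood test of edgeR 4.0.16 in R 4.3.3. A gene was called at a Benjamini-Hochberg adjusted p below 0.05 with a log2 fold change of 1 or more in either direction. CPM were computed with TMM-scaled library sizes. Where a line had no count, the fold was set against 3 counts over its 3 libraries, and with 1 to 3 counts a ratio with its 95% counting interval is given. These cover counting error only. In simulated counts of 14452 genes, 200 were changed. The same test, at an adjusted p below 0.05, picked out 3% of the 2-fold and 51% of the 4-fold changes. Of its 58 calls, 4 were false (6.9%). The simulation left out the limit of 2-fold and changed far fewer genes than were called here. Its shares therefore do not give the power of this comparison.

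Libraries with the same replicate number in the 2 lines deviated together (r = 0.476, 0.359 and 0.50 for numbers 1, 2 and 3, against -0.332 to -0.116 for unlike numbers), so the numbers pair the libraries. This pairing comes from the data, since the labels do not say what a number stands for. The alternatives were other scalings, no filter, DESeq2 1.42.0, fits of 6 or 12 libraries, replicate blocks, other levels for on and off, and each library left out in turn. A further set of HCT116 markers was added after the data were seen.

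The comparison and the 44 gene lists were chosen with earlier results of these data known. Named genes came from a rule that takes, in each direction, the 15 called genes with the largest ratio and at least 10 CPM, the 10 with the largest difference in CPM and, in each list, up to 4 called and 2 uncalled members. Of the 369 genes this gave, 158 are printed, picked after their values were seen, with 13 from outside it that were chosen in the same way: ELOVL5, GAL, FOXA1, LGALS4, CREB3L1, EPHB2, CD44, RNF43, BRAF, APC, SLC2A1, GPX2 and TALDO1. Some genes are not reported here. Genes of the Y chromosome and XIST are not named.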

Additional observations from a re-analysis of the deposited data

How the results depend on the processing

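The 3925 calls between LoVo and HT-29 stayed within 1.5 times of that number under every alternative run: DESeq2 gave 4073, the adjusted p alone 4473, the 6 compared libraries alone 3463, the 12 cancer line libraries 3608, scaling by library size alone 3851 (54.8% of them higher in LoVo, against 50.5% with TMM), and leaving out 1 library 3143 to 3913. Without HT-29 replicate 2, 54.3% of 3500 calls were higher in LoVo. With replicate number as a block, 3909 genes were called in 6 libraries and 4216 in 12. The other fits, each taken alone, kept 75.2% to 99.4% of the calls, and 0 changed direction. Over all 14 alternatives together 2417 of the 3925 calls (61.6%) were kept, as were 223 of 285 called genes of the naming rule (78.2%) and 141 of the 150 called genes named in the text (94.0%). The named genes were picked with their values known and by size of difference, so their higher share follows from that choice in part and does not speak for the other calls. Fitting the 6 compared libraries alone gave 4 higher class I genes, 1 higher EMT factor, 3 higher integrin and laminin genes and 1 lower histone gene, against 7, 3, 5 and 4. The block changed the call of MSH3, ENO1 and EGR1, each given with its values beside the result, and MAGEB2 could not be fitted with 6 libraries. It changed no other call of the named genes. The count of genes on in one line and off in the other depended on its limits: it was 174, but 444 with off set below 0.5 CPM, 101 with on set at 10 CPM, and 157 to 291 when a library was left out, the highest without HT-29 replicate 2. Leaving out 1 library moved the fold by more than 1.5 times in 57 of the 150 called genes named in the text, most often without HT-29 replicate 2 (27 genes), and the cause was not tested. Of the genes not called, 8 changed sign. Leaving out libraries gave log2 fold changes of -0.19 to 0.27 for SOX9, -0.09 to 0.48 for APC, -0.18 to 0.27 for ADAM10, -0.35 to 0.11 for MET, -0.15 to 0.28 for GAPDH, -0.13 to 0.42 for MYC, -0.13 to 0.31 for PERP and -0.59 to 0.27 for HOXB7. Scaling by library size alone gave 0.03 for SOX9 and 0.03 for HOXB7, and both blocks gave -0.02 for GAPDH. Library size alone also moved the median of all genes to 0.11, against 0.03 with TMM. The shallowest libraries, LoVo and HT-29 replicate 3, limit what low genes can show.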
